A study of Mus musculus with 6 samples.

Results

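The subject here is the tumour suppressor p53 (gene Trp53) and 9 genes that it switches on directly in mouse cells: Cdkn1a, Mdm2, Plk2, Fas, Ccng1, Bax, Sesn2, Perp and Zmat3. The members are all probes of a bead array whose gene symbol in the supplied probe annotation is 1 of these 10 names. This gave 19 of 45281 probes and 8 of 19057 genes. No probe carries the name Trp53 or Bax in that annotation, so their RNA was not analysed here. RNA was compared between Lasp1-/- mouse embryonic fibroblasts (3 arrays, Lasp1 knockout) and Lasp1+/+ fibroblasts (3 arrays, wild type), both of strain C57Bl/6NCr. Fibroblasts of this kind are connective tissue cells grown from dissociated embryos, and the LASP1 protein binds actin filaments at sites of cell adhesion. The labels do not say how the gene was disrupted, how long the cells had been in culture, whether they were immortalised, or whether the arrays came from separate embryos or cultures. The p-values thus cover only the variation among these 6 arrays, and that variation may be technical.

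p53 is a transcription factor that is kept scarce in resting cells by MDM2, a ubiquitin ligase that marks it for destruction. DNA damage and other stress free p53 from MDM2, and it then binds paired short motifs in DNA and activates genes for growth arrest, cell death, repair and its own restraint. Most of this control acts on the protein, so RNA levels of the targets, and not of Trp53, are the usual readout on an expression array. In cultured mouse embryonic fibroblasts the pathway is known for the arrest that ends growth after repeated passage, which cells escape by losing p53 or its activator p19ARF.

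Promoter windows from RefSeq (build GRCm38.p6, 250 bases before to 50 bases after a gene's start) were held for 8 of the 10 genes, with 9 windows in all because Cdkn1a has 2 starts that lie 2790 bases apart. The windows were searched for the p53 consensus, a unit of 10 bases that occurs in adjacent pairs without a spacer, which reads the same on both strands. A 20-base match with at most 2 mismatches stood in 2 of the 9 windows, against 0.798% of all 32851 windows of the same length. Each of the 2 had 1 mismatch, a level reached in 0.0883% of all windows. The 2 sites are shown because they are the closest matches to the consensus among the members, beside genes whose probes were bright in both genotypes. Capitals mark the whole 20-base match.
Cdkn1a site, chr17:29090928-29090947, plus strand: GAACATGTCTTGACATGTTC
Ccng1 site, chr11:40755462-40755481, minus strand: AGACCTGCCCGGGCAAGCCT

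The 250 bases before the upstream start of Cdkn1a and before the start of Ccng1 show where these sites lie. The Cdkn1a site begins 51 bases before that start and the Ccng1 site begins 195 bases before its start. The same stretch is given for Mdm2, the member with the lowest adjusted p, where capitals mark a single exact match to the 10-base unit. An exact unit was found in 8.36% of all windows, so it is a common match.
Cdkn1a, chr17:29090729-29090978, plus strand: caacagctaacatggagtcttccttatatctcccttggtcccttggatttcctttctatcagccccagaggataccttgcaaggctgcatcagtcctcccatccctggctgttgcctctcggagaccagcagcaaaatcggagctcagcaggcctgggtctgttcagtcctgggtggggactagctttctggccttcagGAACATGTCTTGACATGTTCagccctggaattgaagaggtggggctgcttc
Ccng1, chr11:40755287-40755536, minus strand: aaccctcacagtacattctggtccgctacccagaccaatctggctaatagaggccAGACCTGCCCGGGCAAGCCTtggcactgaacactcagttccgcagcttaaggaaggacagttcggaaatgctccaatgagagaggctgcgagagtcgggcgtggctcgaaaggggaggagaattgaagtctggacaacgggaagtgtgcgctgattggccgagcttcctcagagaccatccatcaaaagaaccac
Mdm2, chr10:117710759-117711008, minus strand: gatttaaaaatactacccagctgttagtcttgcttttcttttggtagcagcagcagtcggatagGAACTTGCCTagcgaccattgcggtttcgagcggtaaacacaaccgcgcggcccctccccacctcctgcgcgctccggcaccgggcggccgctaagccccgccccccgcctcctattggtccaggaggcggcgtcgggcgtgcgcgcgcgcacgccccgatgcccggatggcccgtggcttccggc

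No 20-base match was found in the windows of Mdm2, Fas, Plk2, Sesn2, Trp53 and Bax, or at the downstream start of Cdkn1a. That says only that these letters are not in those 300 bases.

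The values are array intensities on a linear scale, with a median of 1000 on every array. The lowest value on any array was 593.1, so background light does not appear to have been subtracted. A probe near 1000 may then be mostly background, and the fold change of a dim gene understates its change. The upper quartile was 2018 to 2283 on the knockout arrays and 2041 to 2330 on the wild-type arrays. Lasp1 itself, at its brightest probe, read 49770 to 51904 in knockout cells and 135295 to 148809 in wild-type cells. The knockout level there was 0.35 of wild type, far above the array median, and the source of that signal was not tested. Probe ILMN_2879745 averaged 3097 in knockout cells and 12502 in wild-type cells. The other Lasp1 probe lay near the array median (923 and 1107) and did not pass (limma adjusted p = 0.121 over all probes). In a limma fit over all genes, each represented by its brightest probe, 6.28% of genes were called at a Benjamini-Hochberg adjusted p under 0.05 (the threshold used throughout). Of all genes, 2.19% were higher and 4.08% lower in knockout. In bulk RNA a change in the number of cells of a type cannot be told apart from a change in RNA per cell.

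3 members of different function rose in Lasp1 knockout fibroblasts: the p53 inhibitor Mdm2, the death receptor Fas and the polo-like kinase Plk2, each about as much. The growth arrest gene Cdkn1a, the RNA-binding gene Zmat3, the sestrin Sesn2 and the membrane protein gene Perp did not pass, and neither did the cyclin G1 gene Ccng1. Of the 8 measured members, 3 rose, 0 fell and 5 did not pass, and 7 of the 8 were brighter than the median of all probes, a set of which 3.46% were called higher. Their median log2 difference was 0.17, beside a median of -0.02 over all genes. The knockout arrays lay above the wild-type arrays without overlap for 4 members, against 7.34% of all genes. The members were chosen with earlier results of these data known. These shares are thus given for scale and are no test of the members. The 3 calls were lost after normexp background correction of the intensities, where the differences were of similar size (0.61 for Mdm2, 0.54 for Fas and 0.57 for Plk2) and the limma adjusted p-values were 0.0661, 0.0921 and 0.129.

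**Figure D1:**
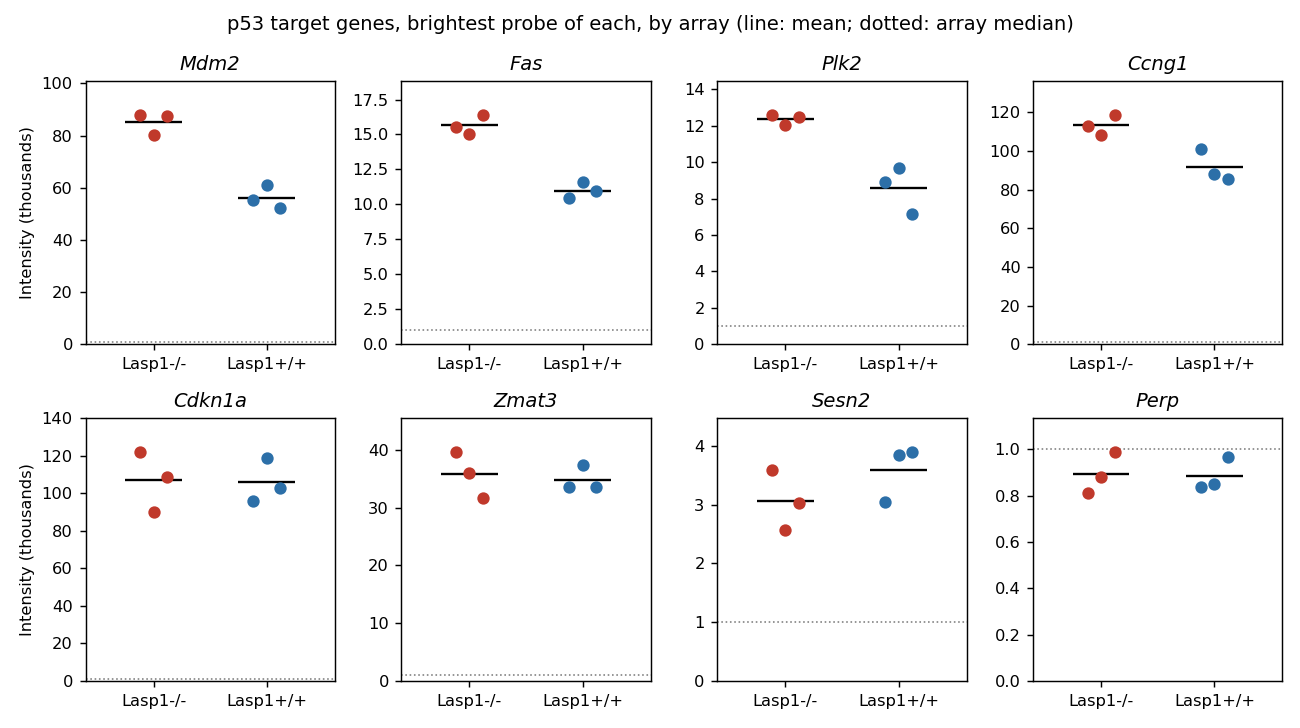
Intensity (axis labels in units of 1000) on a linear axis from 0 (each panel has its own scale) at the brightest probe of each measured p53 target gene, for 3 Lasp1-/- arrays (red, left) and 3 Lasp1+/+ arrays (blue, right), with the mean as a line and the array median of 1000 dotted. The groups are separate for Mdm2, Fas, Plk2 and Ccng1, overlap for Cdkn1a, Zmat3 and Sesn2, and Perp lies below the array median on every array.

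Mdm2 codes for the ligase that ubiquitinates p53 and is itself a p53 target, which closes a feedback loop. At its brightest probe (ILMN_1250774) the knockout arrays read 87753, 80189 and 87483, and the wild-type arrays read 55194, 61016 and 52400. All knockout arrays were above all wild-type arrays, and the gap was wider than the spread within either group. The log2 difference was 0.60 ± 0.08 (SE) (1.52-fold, limma adjusted p = 0.00294). Permuting the 6 arrays exactly gave a two-sided p of 0.1, which is as low as 3 arrays against 3 can go.

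The second bright Mdm2 probe (ILMN_2850753) was also higher in knockout cells. It read 63650, 48315 and 57273 in knockout cells, and 37095, 37586 and 41405 in wild-type cells. The groups did not overlap, and the log2 difference was 0.54 ± 0.10 (limma adjusted p = 0.0215 over all probes). The call at this probe was lost when knockout replicate 1 (adjusted p = 0.0512), knockout replicate 3 (adjusted p = 0.122) or wild type replicate 3 (adjusted p = 0.0678) was left out. It was also lost after normexp background correction (limma adjusted p = 0.239) and with the replicate number as a block. In all, 7 of 12 alternative fits kept the call. The other Mdm2 probe (ILMN_1229882) lay between 858 and 1032 on all 6 arrays, near the array median, and is no measure of the gene.

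Mdm4, which codes for the partner of MDM2 that also restrains p53, was not called at its brightest probe. It read 1064 ± 15 in knockout cells and 1076 ± 69 in wild-type cells (SD, n = 3 each), both near the array median, with a 95% interval of the log2 difference from -0.18 to 0.15. Ppm1d, the WIP1 phosphatase gene and another feedback target, was bright and showed a difference of 0.02 with an interval from -0.18 to 0.21. The genes with profiles most like that of Mdm2 over the 6 arrays, by root mean square distance of centred log2 values, were Vstm2b (0.045), Zfp941 (0.052) and Cela1 (0.055).

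Fas codes for the cell surface receptor through which Fas ligand triggers cell death. At its brightest probe (ILMN_2902979) the knockout arrays read 15558, 15003 and 16366, and the wild-type arrays read 10446, 11572 and 10928. The lowest knockout array was above the highest wild-type array. The log2 difference was 0.51 ± 0.075, or 1.42-fold (limma adjusted p = 0.00403). The other Fas probes did not pass. ILMN_2479290 read 3992, 3273 and 4412 in knockout cells and 3395, 3061 and 3616 in wild-type cells, overlapping groups with a log2 difference of 0.21 ± 0.11 (limma adjusted p = 0.466 over all probes). ILMN_2582933 and ILMN_2454420 lay between 877 and 1129, near the array median. With all 4 probes averaged, Fas was not called (0.20, limma adjusted p = 0.117).

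Plk2 codes for a polo-like kinase that acts in centriole duplication and in the response to stress. Its single probe (ILMN_1260448) read 12574, 12056 and 12461 in knockout cells, and 8938, 9704 and 7140 in wild-type cells. The knockout arrays were close together and all above the wild-type arrays, of which replicate 3 was the lowest. The log2 difference was 0.54 ± 0.11, or 1.45-fold (limma adjusted p = 0.0205). The call was lost without any one of the knockout arrays (adjusted p = 0.0550, 0.0685 and 0.107 without replicates 1, 2 and 3) and without wild type replicate 3, where the difference was 0.41 (adjusted p = 0.0538).

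Among the relatives of Plk2, the genes went in both directions. Plk3, another stress-induced polo-like kinase gene, read 5127, 4505 and 4410 in knockout cells and 3610, 3900 and 3189 in wild-type cells. It rose by 0.39 ± 0.10 (limma adjusted p = 0.0458), a call close to the threshold that was kept in 1 of 6 fits that left out an array. Plk1, the kinase gene of mitosis, read 15274, 14146 and 14469 in knockout cells and 20571, 20972 and 19348 in wild-type cells. It fell by 0.47 on the log2 scale (SE 0.07, limma adjusted p = 0.00522). Plk4 did not pass (-0.13 ± 0.10, limma adjusted p = 0.597).

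Ccng1 codes for cyclin G1, a p53 target that takes part in the feedback on MDM2 by recruiting a phosphatase. At its brightest probe (ILMN_2500276) the knockout arrays read 113118, 108242 and 118424, and the wild-type arrays read 101226, 87904 and 85620. The groups did not overlap, but the difference of 0.31 ± 0.09 missed the threshold (limma adjusted p = 0.0715). It passed after quantile normalization (0.36, adjusted p = 0.0379) and without wild type replicate 1 (0.38, adjusted p = 0.0222). The other 2 probes overlapped between the genotypes. ILMN_2710229 averaged 46629 in knockout cells and 43836 in wild-type cells, and ILMN_2702233 averaged 22015 in knockout cells and 19270 in wild-type cells, with log2 differences of 0.10 ± 0.105 and 0.20 ± 0.11. The p53 site printed above for Ccng1 stands beside a gene that was bright on all arrays and had no call between genotypes.

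Cdkn1a codes for p21, the inhibitor of cyclin-dependent kinases through which p53 halts the cell cycle. At its brightest probe (ILMN_2634083) the knockout arrays read 121985, 90268 and 108952, and the wild-type arrays read 95957, 118642 and 102853. The ranges overlapped almost completely, and the log2 difference was 0.01 ± 0.12 (limma adjusted p = 0.982), with a 95% interval from -0.26 to 0.29. The interval ends below the rises measured for Mdm2, Fas and Plk2, although the differences between the genes were not tested. ILMN_2846775 averaged 35207 in knockout cells and 33860 in wild-type cells, and ILMN_2846776 averaged 24352 in knockout cells and 21461 in wild-type cells, with log2 differences of 0.05 ± 0.12 and 0.17 ± 0.14. Knockout replicate 1 was the highest knockout array at all 3 probes, and wild type replicate 2 the highest wild-type array at all 3. These are the arrays with the highest upper quartile in each group, and the part of this in the result was not tested.

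Of 16 partners and relatives of p21 (cyclins, their kinases, other inhibitors and the RB proteins), 0 rose and 1 fell. The shares over all genes were 2.19% called higher and 4.08% called lower. Cdkn2c, the gene for the CDK4 and CDK6 inhibitor p18, read 5816, 5262 and 6052 in knockout cells and 8563, 9757 and 9702 in wild-type cells. It fell by 0.71 on the log2 scale (SE 0.09, limma adjusted p = 0.00146). The list had a median of -0.06. Cdkn2a, which codes for p16 and for the p53 activator p19ARF, lay not far above the array median at 1448 ± 103 in knockout cells and 1407 ± 93 in wild-type cells (SD, n = 3 each), with no call (limma adjusted p = 0.884).

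Zmat3 codes for a zinc finger protein that binds RNA and regulates splicing and stability downstream of p53. Its single probe read 39612, 35966 and 31641 in knockout cells, and 33553, 37350 and 33606 in wild-type cells. The wild-type range lay inside the knockout range, and the log2 difference was 0.03 with a 95% interval from -0.18 to 0.25 (limma adjusted p = 0.921).

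Perp codes for a small membrane protein of desmosomes that p53 induces in dying cells and p63 in skin. Its single probe read 813, 879 and 988 in knockout cells, and 836, 852 and 966 in wild-type cells. All 6 values were below the array median, so the lack of a call (limma adjusted p = 0.975) is no measure of its RNA. Trp63, the gene for p63, was near the array median too (1020 ± 52 in knockout cells and 1091 ± 15 in wild-type cells, SD, n = 3 each). Of 9 measured desmosome genes and Perp relatives, 0 rose and 1 fell, with a median of -0.03, where 4.08% of all genes were called lower. The one was Pmp22, the gene for a related myelin protein that fibroblasts also express (-0.49 ± 0.10, limma adjusted p = 0.0218). That call did not hold without knockout replicate 2 or 3. The desmosome genes Pkp2 (0.41 ± 0.11) and Jup (0.30 ± 0.09) lay higher in knockout without overlap and missed the threshold (limma adjusted p = 0.0624 and 0.0906).

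Sesn2 codes for sestrin 2, which restrains the growth regulator mTORC1 and is induced both by p53 and by the stress factor ATF4. At its brightest probe (ILMN_2948945) the knockout arrays read 3589, 2574 and 3021, and the wild-type arrays read 3037, 3842 and 3895. The groups overlapped, and the log2 difference was -0.235 ± 0.136 (limma adjusted p = 0.435). ILMN_1219984 gave -0.13 ± 0.135, and ILMN_1229465, between 1034 and 1172 on every array, gave 0.00 ± 0.07. Its relatives Sesn1, a p53 target (-0.29 ± 0.11, limma adjusted p = 0.178), and Sesn3 (0.18 ± 0.08, limma adjusted p = 0.292) did not pass either.

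**Figure D2:**
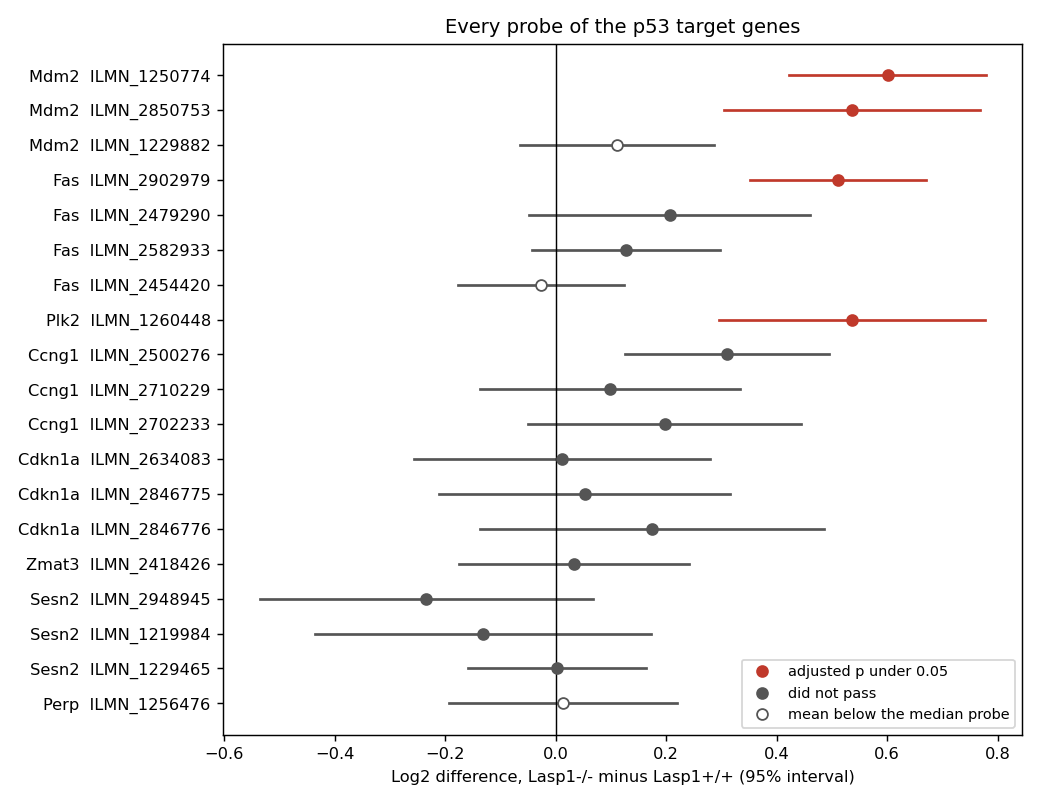
Log2 difference between Lasp1-/- and Lasp1+/+ arrays on the x axis, with its 95% interval from the limma fit over all probes, for each of the 19 probes of the measured p53 target genes. The 4 called probes (red) belong to Mdm2, Fas and Plk2, and open circles mark the 3 probes whose mean is below the median probe.

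Over all 19 member probes, 4 were called, all higher in knockout, while 1.4% of all probes were called higher. The knockout arrays lay wholly above the wild-type arrays at 5 probes and wholly below at 0, against 6.97% and 11.5% of all probes. These shares too are given for scale only. Probes of 1 gene share their RNA and are not independent. The 4 calls belong to 3 genes.

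Other p53 targets were taken from 4 lists with 49 genes in all, of which 45 were measured and 41 were brighter than the median of all probes. Of the 45, 0 rose, 1 fell and 44 did not pass, with a median log2 difference of -0.01. Among all genes 2.19% were called higher and 4.08% lower. Knockout arrays lay wholly above wild-type arrays for 7 of the 45 and wholly below for 4, against 7.34% and 14% of all genes. That count depended on how the fit was made: after quantile normalization 10 rose and 3 fell, and with array weights 5 rose and 10 fell. Calls grew over the whole array too. Of all 19057 genes, quantile normalization called 1009 higher and 1083 lower, and array weights called 3267 in either direction. Leaving out wild type replicate 1 gave 1 rise and 4 falls, and leaving out wild type replicate 2 gave 5 rises and 2 falls. Among 15 apoptosis targets limma called 0, and the median was 0.05. In that list 4 rose after quantile normalization, 4 rose and 2 fell with array weights, and 3 rose and 1 fell without wild type replicate 2. Bbc3, the gene for the death-inducing protein PUMA, read 16987, 16277 and 14679 in knockout cells and 10815, 14225 and 11691 in wild-type cells. These groups did not overlap, with a log2 difference of 0.39 ± 0.11 (limma adjusted p = 0.0752), and 2 of its 3 probes had that sign. Pmaip1, which codes for the related protein NOXA, gave 0.34 ± 0.11 (limma adjusted p = 0.104).

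The genes called higher after quantile normalization included both of these, at 0.49 for Bbc3 and 0.43 for Pmaip1 (limma adjusted p = 0.000963 and 0.0205). They also included Pidd1, the gene for a death domain protein that activates caspase-2 (0.725, adjusted p = 0.000475), the autophagy gene Dram1 (0.51, adjusted p = 0.000773) and the repair nuclease gene Ercc5 (0.60, adjusted p = 0.00103). In the deposited scaling Pidd1, Dram1 and Ercc5 had differences of 0.65 ± 0.165, 0.41 ± 0.105 and 0.49 ± 0.13 and missed the threshold (adjusted p = 0.0515, 0.0547 and 0.0644). Of the 3 genes called lower after quantile normalization, Igfbp3 is described with the secreted proteins. The iron reductase gene Steap3 gave -0.406 (adjusted p = 0.00691) and the stress sensor gene Gadd45b -0.287 (adjusted p = 0.0405). In the deposited scaling these gave -0.446 ± 0.11 and -0.364 ± 0.11 and also missed the threshold (adjusted p = 0.0519 and 0.0916). These genes are named here because of these values. Mdm2, Fas and Plk2 passed under both scalings, with differences of 0.68, 0.62 and 0.64 after quantile normalization.

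Targets for growth arrest (10 measured), DNA repair (9) and metabolism or secreted proteins (12) had medians of 0.09, -0.09 and -0.17. Gadd45a, a stress sensor gene of growth arrest, read 22119 ± 852 in knockout cells and 24694 ± 1318 in wild-type cells (SD, n = 3 each) and was not called (-0.16 ± 0.07, limma adjusted p = 0.306). Among all genes 4.08% were called lower. The one call in these lists was Igfbp3, the gene for a binding protein that sequesters insulin-like growth factors. It read 8456, 10150 and 8397 in knockout cells and 13720, 18126 and 15553 in wild-type cells. It fell by 0.81 on the log2 scale (SE 0.12, limma adjusted p = 0.00377), the opposite direction to Mdm2, Fas and Plk2.

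Of 22 measured regulators and relatives of p53, 1 rose and 0 fell, with a median of -0.01. The shares over all genes were 2.19% called higher and 4.08% called lower. Hipk2, the gene for a kinase that phosphorylates p53 at a serine linked to cell death, read 20623, 21877 and 17555 in knockout cells and 12292, 12132 and 11825 in wild-type cells. It rose by 0.72 ± 0.09 (limma adjusted p = 0.00176). Of its 4 probes 2 had that sign, and with the 4 averaged it was not called (0.25, limma adjusted p = 0.082). The damage kinase gene Atm gave -0.265 ± 0.12 and Chek2 gave -0.32 ± 0.10, neither called (limma adjusted p = 0.284 and 0.108).

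BAX works with other proteins of the BCL2 family, which decide whether the outer mitochondrial membrane is opened. Of 15 measured genes of that family, which include Bbc3 and Pmaip1, limma called 0, and the median was 0.00. Bak1, whose protein opens that membrane as BAX does, read 2437 ± 155 in knockout cells and 2700 ± 148 in wild-type cells (SD, n = 3 each). Bcl2 and Bcl2l1, which code for inhibitors of BAX, gave -0.16 ± 0.09 and 0.17 ± 0.07. Of 6 measured genes of the Fas pathway limma called 0, with a median of -0.25. For both lists the share over all genes was 6.28% called in either direction. The ligand gene Fasl lay below the array median (877 in knockout cells and 858 in wild-type cells). The adaptor gene Fadd and the caspase gene Casp8 gave -0.30 ± 0.09 and -0.27 ± 0.11 (limma adjusted p = 0.101 and 0.220). Daxx and Faf1, whose proteins bind Fas, gave -0.525 ± 0.149 and -0.23 ± 0.08 (limma adjusted p = 0.0783 and 0.158). Cflar, the gene for an inhibitor of caspase-8, lay in the other direction (0.47 ± 0.15, limma adjusted p = 0.120).

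**Figure D3:**
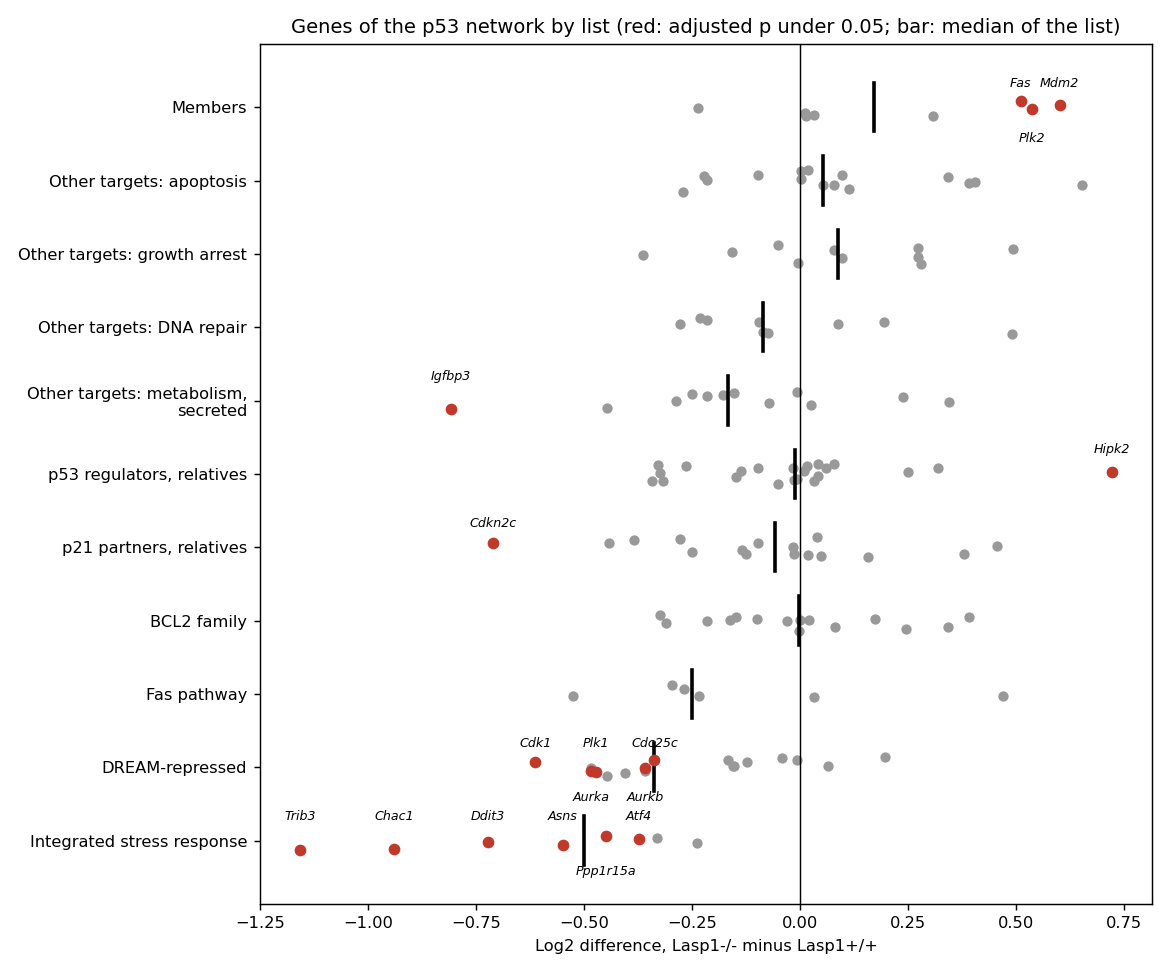
Log2 difference between Lasp1-/- and Lasp1+/+ arrays on the x axis for each measured gene of 11 lists around p53, with a bar at the median of the list and called genes in red with their names. Points are spread vertically for legibility. The called genes of the integrated stress response and of the DREAM-repressed list lie to the left, and Mdm2, Fas, Plk2 and Hipk2 to the right.

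p21 also acts through the DREAM complex, which represses cell division genes when p53 is active. Of 17 measured genes of that kind, 5 fell (Cdk1, Aurka, Plk1, Aurkb and Cdc25c), 0 rose and 12 did not pass, with a median of -0.34, while Cdkn1a itself showed no call. Over all genes 4.08% were called lower. Knockout arrays lay wholly below wild-type arrays for 12 of the 17, against 14% of all genes. Among those without overlap, Ccna2, Ccnb2 and Ube2c read below the array median on every array and are no measure of their genes. In the whole list 12 of the 17, with all 5 called genes among them, were brighter than the median of all probes. Cdk1, the kinase gene that drives entry into mitosis, read 15382, 11638 and 13139 in knockout cells and 18895, 20428 and 21779 in wild-type cells. It fell by 0.61 on the log2 scale (SE 0.11, limma adjusted p = 0.0107), though with its 3 probes averaged it was not called (-0.23, limma adjusted p = 0.0824). Plk1, given above, is in this list too. Leaving out knockout replicate 2 left 2 falls, leaving out knockout or wild type replicate 3 left 1, and leaving out wild type replicate 1 gave 8. Limma called 0 of the 17 after normexp background correction.

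The genes of the integrated stress response were listed because Sesn2 is also a target of ATF4. This is the programme of that transcription factor, which is switched on when protein synthesis is slowed under nutrient or protein-folding stress. Of 8 genes, all brighter than the median probe, 6 fell and 0 rose, with a median log2 difference of -0.50. Among genes that bright, 6.47% were called lower. This list, like the others, was chosen with earlier results of these data known. That share is thus given for scale and is no test of the list. Trib3, the gene for a pseudokinase induced by ATF4 and CHOP, read 20801, 20242 and 16271 in knockout cells and 40998, 46791 and 39632 in wild-type cells. The highest knockout array was far below the lowest wild-type array. It fell by 1.16 on the log2 scale (SE 0.11), or 2.23-fold (limma adjusted p = 0.000389).

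Chac1, which codes for an enzyme that degrades glutathione, read 27058, 23443 and 23367 in knockout cells and 46677, 49259 and 45554 in wild-type cells. It fell by 0.94 (SE 0.08, limma adjusted p = 0.000259). Ddit3, the gene for the transcription factor CHOP, fell by 0.72 (SE 0.17, limma adjusted p = 0.0409) and the asparagine synthetase gene Asns by 0.55 (SE 0.10, limma adjusted p = 0.0150). The other called genes were Ppp1r15a, whose protein ends the response (-0.45 ± 0.11), and Atf4 (-0.37 ± 0.09), both close to the threshold (limma adjusted p = 0.0488 and 0.0362). Trib3 and Chac1 were called in all 13 alternative fits. Leaving out knockout replicate 3 left 2 falls, leaving out knockout replicate 2 left 3 and normexp left 2.

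**Figure D4:**
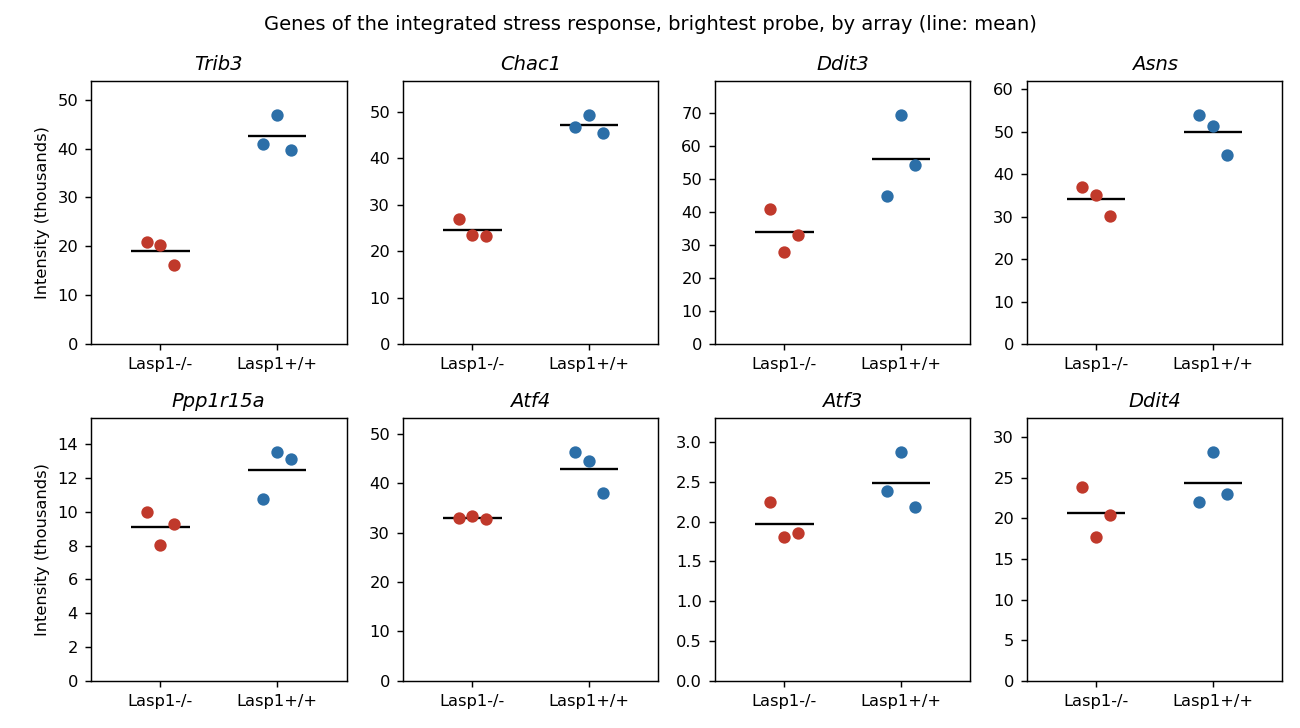
Intensity (axis labels in units of 1000) on a linear axis from 0 (each panel has its own scale) at the brightest probe of 8 genes of the integrated stress response, for 3 Lasp1-/- arrays (red, left) and 3 Lasp1+/+ arrays (blue, right), with the mean as a line. The groups are separate for Trib3, Chac1, Ddit3, Asns, Ppp1r15a and Atf4 and overlap for Atf3 and Ddit4.

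Some markers of cell types were called between the genotypes as well. Of 11 fibroblast markers, all brighter than the median probe, 5 fell (Col1a2, Lum, Pdgfrb, Dcn and Thy1) and 0 rose, where 6.47% of genes that bright were called lower. Their summed intensity was 814034 to 869662 on the knockout arrays and 998494 to 1159060 on the wild-type arrays. Limma called 0 of the 11 after normexp and 0 without knockout replicate 3. Without wild type replicate 3 there was 1 fall, without knockout replicate 2 there were 2, and array weights gave 9 falls.

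Of 10 epithelial and keratinocyte markers, 3 fell (Krt14, Krt8 and Krt19) and 0 rose, where 4.08% of all genes were called lower. The sums were 12944 to 13739 in knockout and 25800 to 30951 in wild type, a gap that lay mostly in Krt14, which averaged 2565 in knockout cells and 15557 in wild-type cells. Without Krt14 the sums were 10404 to 11180 in knockout and 12136 to 12410 in wild type. Krt14 and Krt8 were called in all 13 alternative fits and Krt19 in 7. Krt18 and Cldn4 lay in the other direction, with differences of 0.18 and 0.315 and no overlap between the groups, and were not called (limma adjusted p = 0.246 and 0.059). Apart from the 4 keratins Krt14, Krt8, Krt19 and Krt18, the markers averaged 809 to 1094 in knockout and 868 to 1091 in wild type, near the array median.

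Macrophage, endothelial and skeletal muscle markers (6, 7 and 6 measured) had 1 rise each (Lyz2, Emcn and Actc1) and 0 falls. Over all genes 2.19% were called higher. The medians of the log2 difference in these lists were 0.10, -0.04 and 0.04. Macrophage markers summed to 11660 to 12310 in knockout and 8826 to 10062 in wild type. Endothelial markers summed to 10044 to 10526 in knockout and 9186 to 9696 in wild type, and muscle markers to 10383 to 11154 in knockout and 9264 to 9996 in wild type. Among macrophage markers Lyz2 and Cd14 (2320 in knockout and 1822 in wild type) were the brighter ones, and the others averaged 924 to 1189 in knockout and 878 to 1128 in wild type. The higher endothelial sum in knockout lay mostly in Emcn, which averaged 3634 in knockout and 2367 in wild type. Tek, the other brighter endothelial marker, lay in the other direction (1750 in knockout and 2147 in wild type, limma adjusted p = 0.0765). The other endothelial markers averaged 881 to 1086 in knockout and 896 to 1129 in wild type. Of these, Pecam1 lay higher in knockout (1033, against 896 in wild type, limma adjusted p = 0.255) and the rest slightly lower. Among muscle markers Des averaged 5280 in knockout and 4531 in wild type and Actc1 1448 in knockout and 952 in wild type, while the others averaged 883 to 1120 in knockout and 832 to 1183 in wild type. The part of these shifts in the results for Mdm2, Fas, Plk2 and the stress response genes was not tested.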

How the data were processed

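Per the labels' protocols, column-purified total RNA was made into biotinylated cRNA for Illumina bead arrays. The authors' deposited table holds linear intensities, and the median of every array in it is 1000. For scanner, software and background handling the sources used here give nothing. The intensities were taken to log2 with no further normalization. Linear models were fitted in R 4.3.3 by lmFit and eBayes of limma 3.58.1, with genotype as the only term, once over 19057 genes (brightest probe by mean log2) and once over all 45281 probes. The 34885 probes with 1 symbol were named from the supplied platform annotation, 18 had several and 10378 none. Errors are moderated SEs, and differences are knockout minus wild type. Brightest probes are quoted from the gene fit. The fit was tested on simulated data. Arrays give no counts, so their number limits the precision.

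The 18 gene lists, the members among them, were chosen with earlier results of these data known. Genes were named by a rule: all members, up to 4 rises and 4 falls per list among called genes, fixed close relatives, Lasp1, and the 3 genes nearest to the member with the smallest p. Atf4, Ppp1r15a, Atf3, Ddit4, Cdc25c, Ccna2, Ccnb2, Ube2c, Pidd1, Dram1, Ercc5, Plk4, Atm, Chek2, Fadd, Casp8, Fasl, Daxx, Faf1, Cflar, Steap3, Gadd45b, Pkp2, Jup, Thy1, Krt18, Cldn4, Cd14, Tek, Pecam1 and Des were named outside it, after their values had been seen. Promoter sequences are from RefSeq, build GRCm38.p6. Alternatives were quantile normalization, normexp background correction (offset 50), a restriction to probes above the median, a robust eBayes with a trend (through statmod 1.5.0), weighted arrays, averaging a gene's probes, the replicate block, and leaving out each array. Counts of members and list genes under these were added after seeing the data.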

Additional observations from a re-analysis of the deposited data

How the results depend on the processing

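Limma called 1196 genes and 1764 probes. The counts were 2092 and 3301 after quantile normalization, and 538 and 463 after normexp background correction. They were 3267 and 5681 with array weights, and 415 and 561 with the replicate number as a block. The weighted fit leaned on wild type replicate 3 (weight 3.47) and knockout replicate 3 (1.72), while the other weights were 0.517 to 0.911. Leaving out 1 array gave 463 to 1594 genes and 636 to 2836 probes. After quantile normalization 48.2% of called genes were rises, against 34.9% as deposited. Of the members, 3 were called, against 0 after normexp (with 0.61 for Mdm2, 0.57 for Plk2 and 0.54 for Fas, and limma adjusted p of 0.0661, 0.129 and 0.0921), 5 with array weights (Ccng1 and, lower, Sesn2 were added) and 2 to 4 without 1 array. At an unadjusted p under 0.05 limma had 4 members. That count has no share of all genes beside it and is no sign of an excess. The cause of the shifts in called counts between fits was not tested. The labels do not say whether the replicate numbers pair the samples. Correlations of same-numbered deviations from the group means were -0.413, -0.338 and 0.224. Knockout replicate 1 with wild type replicate 2 gave 0.471, and knockout replicate 2 with wild type replicate 1 gave 0.394. With 3 arrays in each group these values cannot decide whether samples were paired. With the replicate block Plk2 was not called (0.54, adjusted p = 0.0906), while Mdm2 and Fas were (adjusted p = 0.0461 and 0.0499). The block left 0 falls among DREAM-repressed genes, 3 in the stress response and 2 among fibroblast markers.

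Some differences near 0 changed sign. When 1 array was left out, Cdkn1a ranged between -0.088 and 0.129, its probe ILMN_2846775 between -0.065 and 0.138, Perp between -0.063 and 0.079, Zmat3 between -0.045 and 0.118, Ccng1 probe ILMN_2710229 between -0.024 and 0.165, and Fas probe ILMN_2454420 between -0.049 and 0.011. Sesn2 probes ILMN_1219984 and ILMN_1229465 ranged between -0.266 and 0.008 and between -0.032 and 0.058. ILMN_1229465 was -0.003 after quantile normalization, -0.021 after normexp and -0.033 with array weights, where Perp was -0.024. Mdm2, Fas and Plk2 stayed higher in knockout under all 13 alternatives, at 0.42 to 0.68, 0.20 to 0.62 and 0.41 to 0.70, and were called in 12, 11 and 7 of them.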
